A study of Drosophila melanogaster with 12 samples.

Results

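The libraries labelled FneWT were compared with those of untreated S2R+ cells, gene by gene. The deposited table holds 13777 genes, and 8962 of them averaged at least 1 CPM (reads of the gene per 1000000 reads counted to genes) over the 4 libraries of this comparison. Those 8962 were tested. S2R+ is a Drosophila melanogaster cell line that resembles hemocytes, the blood cells of the fly. FneWT cells had been transfected, with the Effectene reagent, for overexpression of wild-type Fne. Untreated cells carry the treatment label none, and whether they were mock transfected is not stated. Neither the promoter nor the 3′ end of the Fne construct is named in the labels. RNA 3′ ends were sequenced from 2 ug of total RNA in 2 libraries per group, and each value is 1 level per gene, so shifts in poly(A) site use inside a gene were outside the measurement. Libraries labelled ElavWT and Rbp9WT, for cells transfected in the same way with the related proteins Elav and Rbp9 in wild-type form, entered the same fit.

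Fne (found in neurons), Elav and Rbp9 form the ELAV/Hu family of Drosophila. These proteins bind U-rich stretches of RNA through RNA recognition motifs, and in neurons they steer alternative splicing and the use of distal poly(A) sites, which yields transcripts with long 3′ UTRs.

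Pairs of values below are replicate 1 and then replicate 2, in CPM as deposited. FneWT held 8047518 and 5497197 reads and untreated cells 14391952 and 6808926, so 1 read was worth between 0.0695 and 0.182 CPM in these 4 libraries. The 11 rRNA-named genes took 3.77% and 24.82% of the reads in FneWT, against 2.91% and 20.11% in untreated cells. Untreated replicate 1 stood apart on the second principal component of the 8 libraries, at 71.5 against at most 14.5 elsewhere. The labels do not say that replicates came from separate cultures, so p-values reflect the spread among these samples alone, and it may be technical.

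The genes of the family were read first. fne (FBgn0086675, chromosome X, 12917477 to 12950417 in the Ensembl annotation of BDGP6) measured 97.4 and 48.0 CPM in FneWT libraries, against 6.67 and 1.91 in untreated cells. Both FneWT libraries lay above both untreated libraries. The log2 change was 3.66 ± 1.23 (SE) and did not pass (limma, adjusted p = 0.137). In ElavWT fne was at 49.8 and 4.47 CPM. In Rbp9WT it exceeded both FneWT libraries in replicate 1 and was at 2.79 CPM in replicate 2. In a fit of the 4 FneWT and untreated libraries alone, fne passed (limma, adjusted p = 1.36e-21). That fit leaves 1 residual degree of freedom, so limma takes the spread largely from other genes. Its p says little about the spread of fne itself. elav measured 42.7 and 59.7 CPM in FneWT libraries, against 24.9 and 37.3 in untreated cells (log2 change 0.43, limma adjusted p = 0.282). Rbp9 measured 7.46 and 2.55 CPM in FneWT libraries, against 3.34 and 2.35 in untreated cells (0.28, limma adjusted p = 0.783), and its small change turned negative without FneWT replicate 2 (-0.04) or untreated replicate 1 (-0.39). In the libraries labelled Rbp9WT, Rbp9 was at 713 and 58.8 CPM, above both untreated libraries. In the libraries labelled ElavWT, elav was at 29.2 and 26.6 CPM, between the 2 untreated libraries and below both FneWT libraries, so its level does not set the ElavWT label apart. Since the 3′ ends of the constructs are not named, whether reads from a construct count to its gene cannot be told.

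Of the S2R+ markers, the GATA factor gene srp was at 88.0 and 48.8 CPM in FneWT libraries, against 73.6 and 53.8 in untreated cells, and the scavenger receptor gene crq was present in all 4 libraries. The plasmatocyte receptor gene NimC1 had no read in any of the 4 libraries, and He reached at most 0.497 CPM. NimC1 and He were not tested. Of the other markers 3 rose, the collagen IV genes vkg (1.19) and Col4a1 (1.24) and the Wnt receptor gene fz2 (1.89). The 2 that fell were the peroxidasin gene Pxn (-1.04) and the receptor tyrosine kinase gene Pvr (-0.82). Over all tested genes 12.4% rose and 6.74% fell. fz2 reached a limma adjusted p of 0.0539 without untreated replicate 1. The other 4 reached 0.184 to 0.226 without that library, 0.0688 to 0.249 without FneWT replicate 1 and 0.05 to 0.24 without FneWT replicate 2. The summed level of the 14 markers was 1441 and 1396 CPM in FneWT libraries, against 793.8 and 1468 in untreated cells.

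Transcripts changed in both directions, and the rises were larger than the falls. Passing means a p adjusted by Benjamini-Hochberg under 0.05 from limma on log2(scaled CPM + 1) with the replicate number as a term. Of 8962 genes 1715 passed, which is 19.1% of those tested. In FneWT 1111 were higher (12.4%) and 604 were lower (6.74%). In 969 of the higher genes both FneWT libraries lay above both untreated libraries, and in 438 of the lower genes both lay below. Over all tested genes 20.6% lay above and 17.4% below in this sense. With group as the only term limma passed 0 genes, with 921 at an unadjusted p under 0.05. edgeR without that term passed 0 and DESeq2 429.

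The calls rest on few libraries and on a choice of scale. The count became 437 without FneWT replicate 1, 709 without FneWT replicate 2, 499 without untreated replicate 1 and 3598 without untreated replicate 2. Only 272 of the 1111 higher genes and 15 of the 604 lower genes passed in all 4 of these fits, and they are called stable calls here. On CPM as deposited the median gene lay 0.27 log2 units higher in FneWT, by 0.49 in replicate 1 and by 0.05 in replicate 2. Values were therefore divided by median-ratio factors, 1.33 and 0.808 for FneWT and 0.953 and 0.755 for untreated cells, which put the median at 0.00. Log2 changes below are on that scale. The split of 1111 higher and 604 lower genes (64.8% higher) became 1371 and 180 (88.4% higher) on CPM as deposited, and 1071 and 931 (53.5% higher) with TMM factors. Under TMM scaling the median gene lay at -0.08. Because 1 CPM was added before taking logs, changes of genes with little or no signal in a group are understated and depend on that value.

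**Figure D1:**
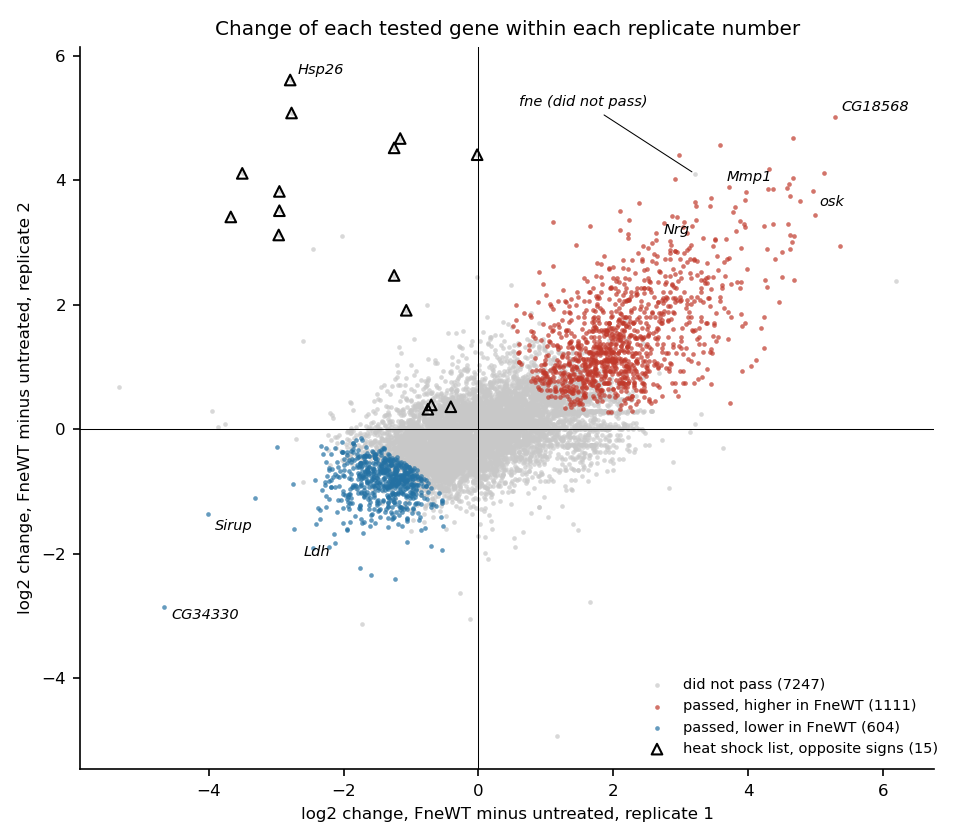
Each point is 1 of 8962 tested genes, with the log2 change (FneWT minus untreated, median-ratio scaled) in replicate 1 on the x axis and in replicate 2 on the y axis. Red points passed as higher (1111), blue as lower (604), and open triangles are the 15 heat shock genes with opposite signs, of which 11 sit in the upper left, past 1 log2 unit both ways, away from the diagonal cloud.

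The steepest rises were of genes that untreated cells barely expressed. CG18568 (FBgn0033888, chromosome 2R, 13971325 to 13972834, minus strand) measured 80.5 and 25.3 CPM in FneWT libraries, against 0.556 and 0 in untreated cells. Its neighbour on the same strand, the sulfotransferase gene St4 (chromosome 2R, 13969910 to 13971263), measured 98.5 and 35.8 CPM in FneWT libraries, against 1.88 and 0.587 in untreated cells. osk (chromosome 3R, 8935126 to 8938395), whose protein nucleates the germ plasm of the oocyte, measured 121 and 28.6 CPM in FneWT libraries, against 1.88 and 1.17 in untreated cells. In these 3 genes the lowest FneWT value was above the highest untreated value by more than 10 CPM. The log2 changes were 5.15 ± 0.31 for CG18568, 4.67 ± 0.31 for St4 and 4.39 ± 0.31 for osk (SE; limma adjusted p = 1.44e-08, 3.07e-08 and 3.07e-08). Mmp1, which encodes a secreted matrix metalloproteinase used in wound closure and tissue remodelling, measured 372 and 59.7 CPM in FneWT libraries, against 10.3 and 3.08 in untreated cells (4.23 ± 0.30). CG18568, St4, osk and Mmp1 also lay above both untreated libraries in ElavWT and in Rbp9WT. In ElavWT osk was at 149 and 43.0 CPM, above the FneWT library of the same number, and Mmp1 at 160 and 18.5 CPM.

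The other 6 of the 10 largest rises were PIP5K59B, a phosphatidylinositol phosphate kinase gene, the antisense RNA gene asRNA:CR45600, and CG8745, CG42404, CG13694 and CG14984. Their log2 changes ran from 4.21 for CG14984 to 4.61 for PIP5K59B, and untreated cells held at most 1.17 CPM of any of them. All 10 largest rises were stable calls. Without the replicate term their lowest limma adjusted p was 0.0678. PIP5K59B, osk, asRNA:CR45600, Mmp1 and CG13694 overlap other annotated genes, as do many of the genes named below. Many of those described with values below overlap none, among them nrv3, mei-P26, bol, csw, vn, pyr, upd3, Atf3, Arc1, stv, NLaz, Ldh and AsnRS. The same holds for Tm2, Mlc2, Mef2, sdt, Tep4, GNBP3, GstD4, GstD8, Hsp67Bc, Eip93F, Vha68-1, RpL36, tum, CanA-14F and lncRNA:CR40469. No label says whether counting used strand, so reads of overlapping genes may not be separable. Of all higher genes 51.9% overlap another gene, as do 55.8% of the lower and 51.9% of all tested genes.

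The largest falls were smaller, and untreated cells expressed most of these genes clearly. CG16888, CG16700 and Kal1 were low in untreated cells, at 3.82 and 7.34, 3.75 and 12.3, and 9.45 and 6.76 CPM. fat-spondin (FBgn0026721, chromosome 2R, 17054002 to 17059299), which encodes a secreted matrix protein of the spondin family, measured 23.1 and 22.4 CPM in FneWT libraries, against 95.1 and 81.1 in untreated cells. The glutathione transferase gene GstE9 measured 25.8 and 10.2 CPM in FneWT libraries, against 89.7 and 37.5 in untreated cells. CG10063 measured 14.3 and 15.3 CPM in FneWT libraries, against 58.2 and 42.6 in untreated cells. In each of the 3 genes both FneWT libraries lay below both untreated libraries. They fell by 2.19 ± 0.29, 2.06 ± 0.29 and 1.97 ± 0.34 on the log2 scale (SE; limma adjusted p = 5.8e-05, 0.000107 and 0.000748), and with CG16700 (-1.99) they were the stable calls among the 10 largest falls.

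The other 6 largest falls depended on 1 or more libraries. CG34330 showed the largest fall, with 2.73 and 1.64 CPM in FneWT libraries, against 72.5 and 15.7 in untreated cells (-3.75 ± 0.80, limma adjusted p = 0.0171, edgeR adjusted p = 0.0637). Without FneWT replicate 1 its adjusted p was 0.179, and without FneWT replicate 2 it was 0.13. Sirup, an assembly factor of succinate dehydrogenase, measured 106 and 73.5 CPM in FneWT libraries, against 1232 and 179 in untreated cells (-2.69 ± 0.59), and its adjusted p was 0.139 without FneWT replicate 1. In both genes untreated replicate 1 lay far above untreated replicate 2. The kinase gene pll of the Toll pathway (-2.17) reached 0.0509 without untreated replicate 1. CG15861 (-2.21) reached 0.0623 and 0.0585 without FneWT replicate 1 or untreated replicate 1, Kal1 (-1.98) reached 0.0594 without FneWT replicate 1, and CG16888 (-1.97) reached 0.0928 without FneWT replicate 2.

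**Figure D2:**
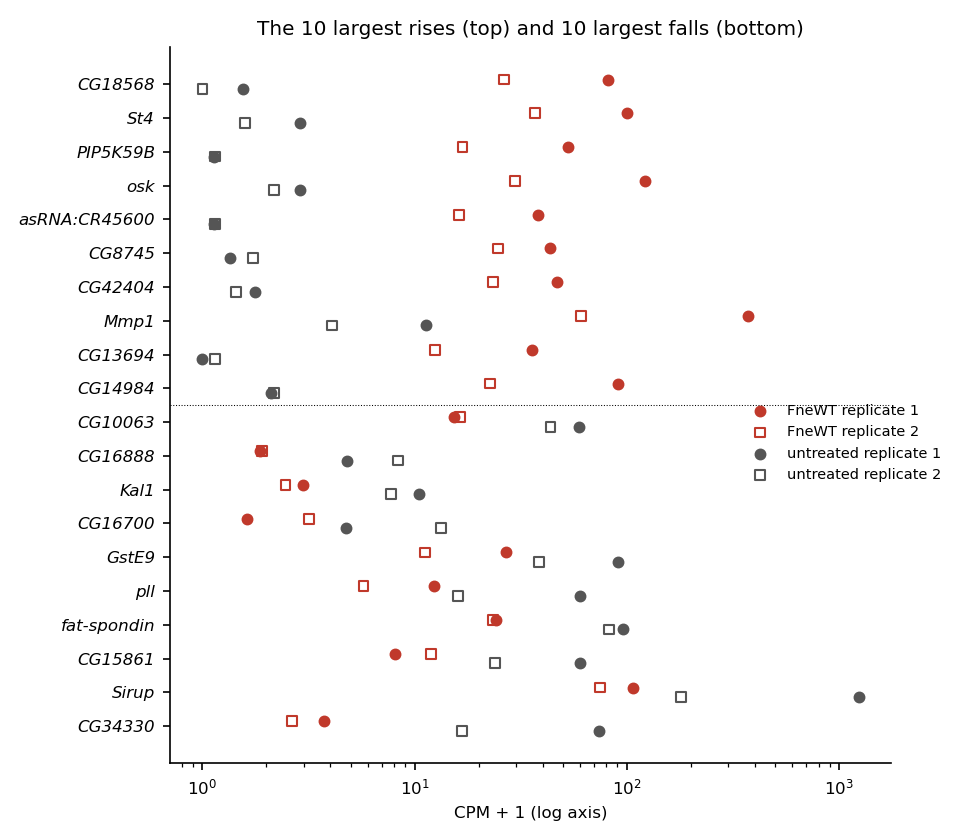
CPM + 1 on a log axis for the 10 largest rises (top) and 10 largest falls (bottom), with FneWT in red above untreated in grey in each row. Filled circles are replicate 1 and open squares replicate 2. The groups do not overlap in any row, and most risen genes sit near the left edge in untreated cells.

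Genes with neural roles were among the rises. Of 31 tested genes for neuronal ion channels and receptors 14 rose and 0 fell, beside 12.4% and 6.74% of all genes, and the median change was 0.92. Of 37 axon adhesion and guidance genes 13 rose and Nlg1 fell (median 0.80). Of 22 presynaptic genes 5 rose and Rop fell (0.84), and of 26 neural transcription factor genes 9 rose and 0 fell (1.04). Of 40 genes known as ELAV targets or for neural 3′ UTR extensions 10 rose and 0 fell (0.69). Nlg1 reached an adjusted p of 0.0798 without FneWT replicate 2 and 0.128 without untreated replicate 1, and Rop 0.0694 and 0.112. The median of each of these 5 lists was larger in replicate 1 than in replicate 2, for instance 1.60 and 0.61 for the channels and 1.09 and 0.36 for the ELAV targets.

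Several of these calls were of genes at a substantial level. nrv3, a subunit gene of the neuronal sodium-potassium pump, measured 137 and 57.5 CPM in FneWT libraries, against 6.60 and 2.94 in untreated cells (3.80 ± 0.26). Nrg (FBgn0264975, chromosome X, 8517373 to 8555170), the L1-type adhesion molecule of axons and a known ELAV splicing target, measured 178 and 67.5 CPM in FneWT libraries, against 19.7 and 7.05 in untreated cells (2.83 ± 0.27). mei-P26, whose annotated 3′ UTR reaches 18494 bases and which encodes a TRIM-NHL translational repressor, measured 640 and 418 CPM in FneWT libraries, against 92.6 and 101 in untreated cells (2.12 ± 0.31). The groups did not overlap in any of the 3. Limma adjusted p-values were 3.07e-08 for nrv3, 9.85e-07 for Nrg and 0.000137 for mei-P26.

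The calcium channel gene Ca-alpha1D measured 53.6 and 9.82 CPM in FneWT libraries, against 2.50 and 0.441 in untreated cells (3.28 ± 0.36). The active zone gene Rim measured 67.2 and 15.8 CPM in FneWT libraries, against 9.17 and 1.62 in untreated cells (2.50 ± 0.35). The SNARE gene Snap25 measured 162 and 74.9 CPM in FneWT libraries, against 32.7 and 17.6 in untreated cells (1.87 ± 0.27). Rim and Snap25 act together in synaptic vesicle release, and both were stable calls, as was Ca-alpha1D. Other stable calls were bol, an RNA-binding gene of the DAZ family (2.15), the RNA-binding gene fus (2.85), the presynaptic adhesion gene Nrx-1 (2.63), the adhesion gene Fas2 (2.02), the RIM-binding protein gene Rbp (2.39) and the acetylcholine receptor subunit genes nAChRbeta1 (2.21) and nAChRalpha3 (1.71).

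Over all genes 272 of the 1111 higher ones were stable calls. The stable calls numbered 5 of 10 among the ELAV targets, 4 of 14 among the channels, 4 of 13 among the adhesion genes, 3 of 5 among the presynaptic genes and 0 of 9 among the neural transcription factors. Of those last genes, zfh2 (2.37) and ey (2.07) passed with limma adjusted p-values of 0.00112 and 0.00262, and without FneWT replicate 2 these were 0.0643 and 0.0605. The filter on low values matters for these lists, since it left out 7 channel and 9 transcription factor genes of the table and could admit others through FneWT alone. When genes had to reach 1 CPM in both untreated libraries, 444 of 7366 genes were called higher. Among them were 10 of the channels, 8 of the adhesion genes, 8 of the ELAV targets, 2 of the presynaptic and 1 of the transcription factor genes. Here and below, members that miss this filter were not tested. These counts are therefore not shares of a list and cannot be set against the share over all genes.

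General neuron markers did not all move. nSyb, the vesicle SNARE gene, measured 21.2 and 4.37 CPM in FneWT libraries, against 34.7 and 1.32 in untreated cells (0.04, limma adjusted p = 0.964), and brp, Syt1, elav and para did not pass either. The 6 neuron markers summed to 438.8 and 210.1 CPM in FneWT libraries, against 166.7 and 105.1 in untreated cells, and Snap25 was the 1 that passed. Their part in the neural results was not tested. In bulk RNA, more cells of a type and more RNA per cell cannot be told apart.

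Some genes of other lineages rose. Of 22 tested muscle genes 6 rose (27.3%, beside 12.4% of all genes) and 0 fell (median 0.89). With 1 CPM required in both untreated libraries, 2 muscle genes were called higher. The tropomyosin gene Tm2 measured 25.8 and 3.46 CPM in FneWT libraries, against 0.0695 and 0 in untreated cells (3.33 ± 0.46), and the myosin light chain gene Mlc2 31.7 and 5.28 CPM, against 1.46 and 0.881 CPM in untreated cells (2.55 ± 0.44). Both were stable calls. Mef2, the muscle transcription factor gene, measured 131 and 46.9 CPM in FneWT libraries, against 12.3 and 20.6 in untreated cells (1.95, limma adjusted p = 0.00356, and 0.0952 without FneWT replicate 1). The summed level of 3 muscle markers was 173.1 and 54.0 CPM in FneWT libraries, against 14.5 and 21.5 in untreated cells, and their part in the muscle result was not tested.

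Of 26 fat body and lipid genes 7 rose (26.9%) and 3 fell (11.5%), beside 12.4% and 6.74% of all genes, with a median of 0.07. Of 24 germline genes 4 rose (16.7%) and 1 fell (4.2%), shares near those of all genes. Their median was -0.11, which became 0.09 on CPM as deposited. With 1 CPM required in both untreated libraries, 0 fat body and lipid genes and 2 germline genes were called higher. NLaz, a secreted lipocalin gene, measured 11.1 and 4.18 CPM in FneWT libraries, against 0.139 and 0 in untreated cells (2.83 ± 0.36), and was the stable call of the fat body list. osk was that of the germline list. The fat body genes Fbp1 and Lsp2, which mark the tissue, were at most 0.182 CPM in any of the 4 libraries, and the yolk protein gene Yp1 was at 1.74 and 3.09 CPM in FneWT libraries, against 0.417 and 0.881 in untreated cells. Of the glial markers repo was at most 0.87 CPM and wrapper at most 2.73 CPM, whereas moody was at 132 and 71.1 CPM in FneWT libraries, against 131 and 90.0 in untreated cells. None of Yp1, moody and wrapper passed. Of 23 glia and epithelial genes 4 rose (17.4%) and 0 fell, with sdt, a scaffold of the Crumbs polarity complex, at 208 and 73.7 CPM in FneWT libraries, against 41.7 and 27.9 in untreated cells (1.55 ± 0.27). Only 13 of 55 listed chemoreceptor genes were tested, and 6 of those rose (46.2%, beside 12.4% of all genes). With 1 CPM required in both untreated libraries, 3 chemoreceptor genes were called higher. Untreated cells held at most 1.88 CPM of the 4 named ones, Ir25a, Gr10a, Ir68a and Gr5a, and none of the 6 was a stable call. Among them Ir25a passed at 0.000973 and reached 0.0725 without FneWT replicate 1 (limma adjusted p).

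**Figure D3:**
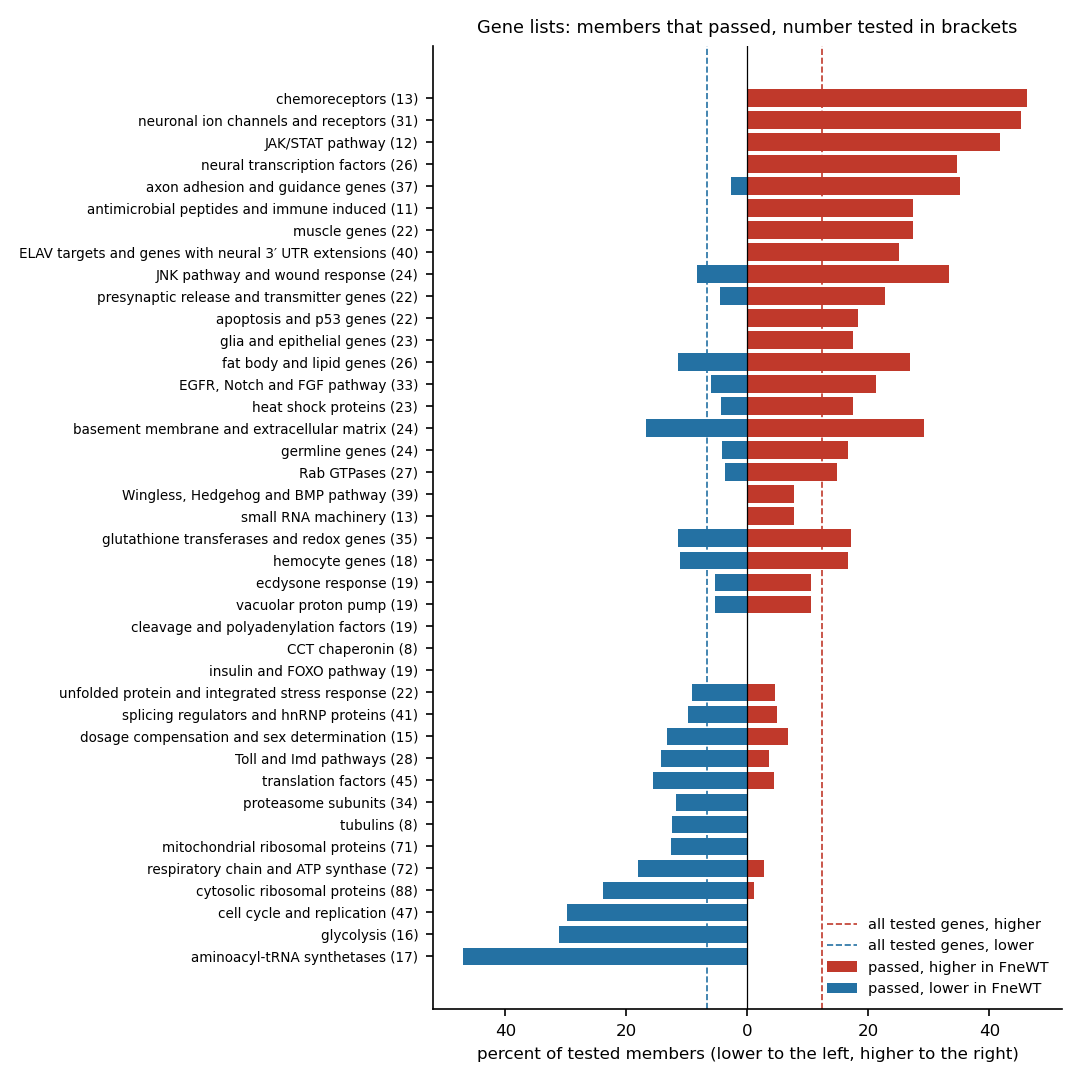
Percent of the tested members of each gene list that passed as higher (red, to the right) or lower (blue, to the left) in FneWT, with the number tested in brackets. Dashed lines mark all tested genes, at 12.4% higher and 6.74% lower. Channel, JAK/STAT, adhesion and neural lists extend past the right line, and synthetase, glycolysis, cell cycle and ribosomal lists past the left line.

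Genes of secreted ligands were among the rises. Of 12 JAK/STAT genes 5 rose (41.7%, beside 12.4% of all genes) and 0 fell (median 0.63). With 1 CPM required in both untreated libraries, 4 were called higher. The cytokine gene upd3, a ligand of this pathway, measured 159 and 15.1 CPM in FneWT libraries, against 12.6 and 2.79 in untreated cells (2.58 ± 0.31, limma adjusted p = 1.64e-05). In this list upd3 was the only stable call. upd2 rose by 1.35, the feedback inhibitor gene Socs36E by 0.93 and the phosphatase gene Ptp61F by 0.97. Without FneWT replicate 2 their adjusted p-values were 0.218, 0.125 and 0.175, and without untreated replicate 1 0.106, 0.123 and 0.376. Without FneWT replicate 1 Socs36E reached 0.129 and Ptp61F 0.176. Of 24 JNK and wound response genes 8 rose (33.3%) and 2 fell (8.3%, beside 6.74% of all genes), and Mmp1 was the stable call. The growth factor gene Pvf3 measured 80.6 and 11.3 CPM in FneWT libraries, against 7.16 and 4.70 in untreated cells (1.95, limma adjusted p = 0.00294, with 0.0922 without FneWT replicate 1 and 0.0742 without untreated replicate 1).

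Of 33 EGFR, Notch and FGF genes 7 rose (21.2%) and 2 fell (6.1%), beside 12.4% and 6.74% of all genes. Those that fell were the ligand genes grk (-0.89) and bnl (-1.59). bnl was stable, and grk reached 0.0927 to 0.34 without FneWT replicate 1, FneWT replicate 2 or untreated replicate 1. csw, the phosphatase gene that acts downstream of receptor tyrosine kinases, measured 307 and 170 CPM in FneWT libraries, against 32.2 and 36.3 in untreated cells (2.42 ± 0.28). The EGFR ligand gene vn (65.6 and 13.8 CPM in FneWT libraries, against 5.49 and 2.06 in untreated cells) and the FGF ligand gene pyr (61.3 and 12.2 CPM in FneWT libraries, against 5.35 and 0.734 in untreated cells) rose by 2.59 and 2.93. csw, vn and pyr were stable calls. Of 39 Wingless, Hedgehog and BMP genes 3 rose (7.7%, below the 12.4% of all genes) and 0 fell. None of 19 insulin and FOXO genes passed in either direction.

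Of 22 apoptosis and p53 genes 4 rose (18.2%, beside 12.4% of all genes) and 0 fell. The median was 0.03, which became -0.06 with TMM factors. With 1 CPM required in both untreated libraries, 2 genes of this list were called higher. p53 measured 92.2 and 36.2 CPM in FneWT libraries, against 14.2 and 11.6 in untreated cells (1.81 ± 0.28), and the Bcl-2 family gene Buffy 13.8 and 5.28 CPM in FneWT libraries, against 0.903 and 0.441 in untreated cells (2.40 ± 0.42). Both were stable. The bZIP factor gene Atf3 measured 592 and 148 CPM in FneWT libraries, against 39.3 and 25.0 in untreated cells (2.92 ± 0.30, limma adjusted p = 2.42e-06) and was the 1 of 22 unfolded protein and stress response genes that rose. In that list crc, the Atf4 homologue, and Der-1 fell by 1.20 and 1.21. Their adjusted p-values were 0.472 and 0.258 without untreated replicate 1 and 0.0848 and 0.19 without FneWT replicate 2, and crc reached 0.229 without FneWT replicate 1.

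Of 24 matrix genes 7 rose (29.2%) and 4 fell (16.7%), beside 12.4% and 6.74% of all genes. With 1 CPM required in both untreated libraries, 6 were called higher and 4 lower. The perlecan gene trol measured 328 and 50.4 CPM in FneWT libraries, against 18.5 and 8.81 in untreated cells (2.96 ± 0.30), a stable call on the side opposite to fat-spondin. Among 18 hemocyte genes 3 rose (16.7%) and 2 fell (11.1%), and under that filter 1 was called higher and 1 lower. The thioester protein gene Tep4 was the stable one, with 382 and 62.0 CPM in FneWT libraries, against 82.8 and 26.3 in untreated cells (1.42 ± 0.29). Its groups overlap on CPM, since untreated replicate 1 exceeds FneWT replicate 2.

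Only 11 of 32 listed antimicrobial and immune-induced genes were tested, and 3 of them (27.3%, beside 12.4% of all genes), the peptide genes DptA, DptB and AttD, rose. With 1 CPM required in both untreated libraries, 0 genes of this list were called higher. DptA, DptB and AttD missed that filter and were then not tested, so the share depends on the filter. DptB measured 14.4 and 7.64 CPM in FneWT libraries, against 1.60 and 0.441 in untreated cells (2.43, limma adjusted p = 0.00208, and 0.0654 without FneWT replicate 2). DptA reached 0.144 and AttD 0.438 without FneWT replicate 1, and 0.0863 and 0.381 without untreated replicate 1. Of 28 Toll and Imd genes 1 rose (3.6%) and 4 fell (14.3%, beside 6.74% of all genes), among them the glucan receptor gene GNBP3 (38.4 and 24.2 CPM in FneWT libraries, against 62.7 and 54.9 in untreated cells, -1.21 ± 0.26), the stable call of that list.

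Detoxification genes passed in both directions. Of 35 glutathione transferase and redox genes 6 rose (17.1%) and 4 fell (11.4%), beside 12.4% and 6.74% of all genes. With 1 CPM required in both untreated libraries, 1 was called higher and 3 lower. GstD4 measured 9.07 and 4.18 CPM in FneWT libraries, against 0.139 and 0.147 in untreated cells (2.57 ± 0.41), and GstD8 measured 7.70 and 3.27 CPM in FneWT with no read in either untreated library, where 3 reads would be 0.208 and 0.441 CPM. GstD4, GstD8, GstD7 and GstD11 rose, whereas GstE6, GstE9 and GstE12 fell. GstD4, GstD8 and GstE9 were stable. GstD7, GstD11, GstE6 and GstE12 reached 0.0661 to 0.211 without FneWT replicate 1, 0.0671 to 0.125 without FneWT replicate 2 and 0.0802 to 0.174 without untreated replicate 1. Genes of each cluster are similar in sequence, and no label says how reads were assigned between them.

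Several abundant transcripts rose. Arc1, whose protein forms capsid-like particles and carries mRNA between neurons and muscle, measured 4845 and 2206 CPM in FneWT libraries, against 339 and 404 in untreated cells (2.85 ± 0.42, limma adjusted p = 0.000142), a stable call. Arc1 was at 7155 and 3181 CPM in ElavWT and at 3753 and 2267 CPM in Rbp9WT. The noncoding RNA gene lncRNA:CR40469 measured 33524 and 14313 CPM in FneWT libraries, against 6146 and 3636 in untreated cells (1.92 ± 0.54, adjusted p = 0.0192). Its adjusted p was 0.127 without FneWT replicate 1 and 0.15 without FneWT replicate 2. DIP-alpha, an immunoglobulin domain adhesion gene of neurons, measured 2515 and 767 CPM in FneWT libraries, against 421 and 266 in untreated cells (1.76 ± 0.36), with 0.0681 without FneWT replicate 1. The calcineurin subunit gene CanA-14F measured 559 and 430 CPM in FneWT libraries, against 143 and 230 in untreated cells (1.14), and reached 0.121 to 0.204 without FneWT replicate 1, FneWT replicate 2 or untreated replicate 1.

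Genes of protein synthesis, energy metabolism and division lay lower in FneWT, most of them without passing. Of 88 cytosolic ribosomal protein genes 21 fell (23.9%, beside 6.74% of all genes) and 1 rose, and 86 had a negative change (median -1.05). Their summed level was 98057 and 202720 CPM in FneWT libraries, against 237436 and 248413 in untreated cells, so the replicates differed, with medians of -1.70 in replicate 1 and -0.39 in replicate 2. RpS29 measured 480 and 877 CPM in FneWT libraries, against 1719 and 1610 in untreated cells (-1.65 ± 0.41, limma adjusted p = 0.0096). RpL36 measured 607 and 787 CPM in FneWT libraries, against 2101 and 1373 in untreated cells (-1.59 ± 0.42, limma adjusted p = 0.0144). Their adjusted p-values were 0.155 and 0.169 without FneWT replicate 1, 0.0616 and 0.0858 without FneWT replicate 2, and 0.0936 and 0.173 without untreated replicate 1.

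None of the ribosomal calls was stable. The lower count was 0 without FneWT replicate 1, 1 without FneWT replicate 2, 0 without untreated replicate 1 and 81 without untreated replicate 2. On CPM as deposited it was 8 and with TMM factors 35. The 5 most abundant genes that fell were all of this class, RpL23A, RpL17, RpS10b, RpS15Aa and RpL34b, with changes from -1.33 to -1.42, and none of them was called without untreated replicate 1.

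The mitochondrial ribosomal list (9 of 71 lower, 0 higher, median -0.56) and the respiratory chain list (13 of 72 lower, 2 higher, -0.63) had 0 stable calls. Of 45 translation factors 7 fell and 2 rose (-0.64), again with 0 stable calls. In these 3 lists 12.7%, 18.1% and 15.6% were lower, beside 6.74% of all genes. Higher were 0%, 2.8% and 4.4%, beside 12.4% of all genes. Of 17 aminoacyl-tRNA synthetase genes 8 fell (47.1%) and 0 rose, and all 17 had a negative change (-0.74). AsnRS, the asparaginyl enzyme gene, was stable, at 28.6 and 33.7 CPM in FneWT libraries, against 98.4 and 69.6 in untreated cells (-1.67 ± 0.30, limma adjusted p = 0.000961). Of 16 glycolysis genes 5 fell (31.2%) and 0 rose (-0.68). Ldh, the lactate dehydrogenase gene, was stable, at 39.4 and 17.8 CPM in FneWT libraries, against 128 and 55.5 in untreated cells (-1.92 ± 0.28, limma adjusted p = 0.000137). On CPM as deposited 2 synthetase, 2 glycolysis and 2 respiratory chain genes were called lower, and 0 of the mitochondrial ribosomal genes.

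Of 47 cell cycle and replication genes 14 fell (29.8%, beside 6.74% of all genes) and 0 rose (median -0.63). tum, a subunit gene of the centralspindlin complex of cytokinesis, measured 111 and 48.8 CPM in FneWT libraries, against 383 and 96.5 in untreated cells (-1.67 ± 0.33, limma adjusted p = 0.0022). The mitotic kinesin gene Klp61F measured 18.1 and 25.3 CPM in FneWT libraries, against 45.7 and 48.6 in untreated cells (-1.38 ± 0.28, limma adjusted p = 0.00253). aurA, aurB, fzy, PCNA and the ribonucleotide reductase genes RnrL and RnrS were also among those that fell. None of the 14 was stable. The adjusted p was 0.0631 for tum and 0.0703 for Klp61F without FneWT replicate 1, and 0.0677 and 0.0682 without untreated replicate 1. The lower count of this list was 3, 8, 0 and 21 without FneWT replicate 1, FneWT replicate 2, untreated replicate 1 and untreated replicate 2. All 8 CCT chaperonin genes and all 34 proteasome genes had negative changes (medians -0.84 and -0.37), of which 0 and 4 passed. The medians were -0.56 and -0.09 on CPM as deposited, where no gene of either list passed.

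None of 19 cleavage and polyadenylation factor genes passed (median -0.17, which became 0.11 on CPM as deposited). Of 41 splicing and hnRNP genes 2 rose (4.9%) and 4 fell (9.8%), beside 12.4% and 6.74% of all genes. Sxl, the RNA-binding gene of female sex determination, which shares the ELAV type of RNA recognition motif, was the stable call, at 77.0 and 27.8 CPM in FneWT libraries, against 14.2 and 8.22 in untreated cells (1.73 ± 0.30, limma adjusted p = 0.00061). In the small RNA list Dcr-2, the nuclease gene of the siRNA pathway, measured 44.6 and 19.8 CPM in FneWT libraries, against 4.93 and 4.26 in untreated cells (2.21 ± 0.32), and was the 1 of 13 that passed. Eip93F, an ecdysone-induced transcription factor gene, measured 122 and 22.4 CPM in FneWT libraries, against 19.6 and 6.76 in untreated cells (1.82 ± 0.31). Vha68-1, a catalytic subunit gene of the vacuolar proton pump, measured 27 and 19.5 CPM in FneWT libraries, against 5.21 and 4.70 in untreated cells (1.76 ± 0.30). Dcr-2, Eip93F and Vha68-1 were stable calls.

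Most heat shock genes differed from untreated cells in opposite directions in the 2 replicates. On the scaled values 15 of 23 tested genes were lower in FneWT replicate 1 and higher in FneWT replicate 2 than in the untreated library of the same number, 11 of them by more than 1 log2 unit both ways. Of the 15, Hsp23 and Droj2 were higher in replicate 1 on CPM as deposited, at 220 and 369 CPM in that FneWT library, against 159 and 352 in the untreated one. Hsp26, a small heat shock protein gene, measured 42.7 and 708 CPM in FneWT libraries, against 217 and 12.8 in untreated cells. Hsp22 measured 3.48 and 165 CPM in FneWT libraries, against 22.5 and 3.82 in untreated cells. FneWT replicate 2 and untreated replicate 1 were the high libraries, and the groups overlap. Neither passed (limma adjusted p = 0.729 and 0.779). The 15 genes summed to 2932 and 7010 CPM in FneWT, 2885 and 5508 CPM in ElavWT, 2984 and 7662 CPM in Rbp9WT, and 4650 and 2937 CPM in untreated cells. The Hsp70 copies among them are near identical, so reads may be split between them.

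The cochaperone gene stv and the small heat shock genes Hsp67Bc and Hsp67Ba behaved otherwise. None of them reached 1 CPM in both untreated libraries, and with that required 0 heat shock genes were called higher. stv measured 17.6 and 18.9 CPM in FneWT libraries, against 1.67 and 0.734 in untreated cells (3.00 ± 0.41). Hsp67Bc measured 19.3 and 9.46 CPM in FneWT libraries, against 0.973 and 0.147 in untreated cells (3.18 ± 0.39). All 3 were stable calls. Hsf, the heat shock factor gene, rose by 0.85 (limma adjusted p = 0.0475), with 0.123 to 0.378 without FneWT replicate 1, FneWT replicate 2 or untreated replicate 1. The chaperonin gene Hsp60A fell by 1.51, with an adjusted p of 0.105 to 0.281 without FneWT replicate 1, FneWT replicate 2 or untreated replicate 1.

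Across the genome, long genes with long 3′ UTRs lay higher relative to the median gene and short ones lower. Protein-coding genes averaging 10 CPM or more were split into 5 classes of like size by their longest annotated 3′ UTR. In the class with the longest UTRs (1089 to 18494 bases, 1183 genes) 17.8% were higher and 2.20% lower, with a median change of 0.29. In the class with the shortest (under 116 bases, 1196 genes) 4.68% were higher and 12.2% lower, with a median of -0.36. The medians by replicate were 0.46 and 0.15 in the longest class and -0.50 and -0.22 in the shortest. The balance of calls among short genes depends on the scaling. On CPM as deposited the shortest class held 81 higher and 44 lower genes (median -0.09), against 56 and 146 with median-ratio scaling, and the longest class 332 and 5 (median 0.57). The median longest UTR was 928 bases among higher genes, 226 bases among lower genes and 358 bases among all genes of this class.

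Gene span sorted the genes in the same way. In the class with the longest span 20.9% were higher and 2.53% lower (median 0.41), and in the class with the shortest 3.12% were higher and 15.8% lower (-0.47). On CPM as deposited the shortest span class held 52 higher and 57 lower genes (-0.19), against 37 and 187 with median-ratio scaling. The features go together: 2234 genes were above the median by both lengths and 2237 were not above it by either. Among genes with a shorter UTR the median change was -0.15 for longer spans and -0.43 for shorter spans. Among genes with a longer UTR it was 0.14 for longer spans and -0.36 for shorter spans. Against ElavWT the median difference of FneWT ran from -0.18 in the shortest UTR class to 0.20 in the longest. Against Rbp9WT it was flatter, at -0.03 in the shortest class and 0.12 in the longest. Without untreated replicate 1 the longest UTR class held 90 higher and 2 lower genes, and without untreated replicate 2 421 and 104. Without FneWT replicate 1 it held 84 and 6, and without FneWT replicate 2 124 and 7. The shortest UTR class held more higher than lower genes without untreated replicate 1 (26 and 10) and without FneWT replicate 1 (27 and 24), and fewer without untreated replicate 2 (87 and 377) and without FneWT replicate 2 (32 and 36). These values describe levels counted at 3′ ends. The part of RNA quality or of rRNA share in them was not tested.

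**Figure D4:**
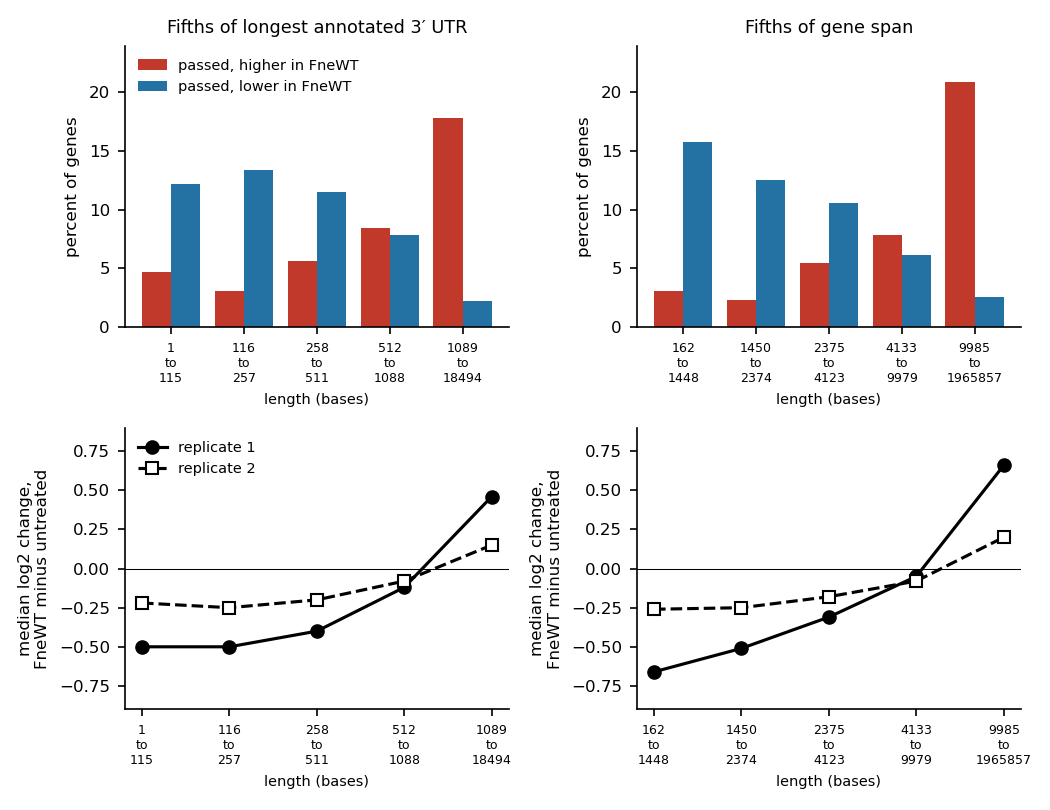
Protein-coding genes averaging 10 CPM or more, in 5 classes of like size of the longest annotated 3′ UTR (left) and of gene span (right), with the length range in bases under each class. Top: percent passed as higher (red) or lower (blue) in FneWT. Bottom: median log2 change, FneWT minus untreated, in replicate 1 (filled circles) and replicate 2 (open squares), which in both replicates lie below 0 in the 4 shorter classes and above 0 in the longest.

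The direction of a call also went with level and chromosome. Among genes of 1 to 5 CPM 21.3% were higher and 0.487% lower, whereas among genes over 100 CPM 4.49% were higher and 11.4% lower. On chromosome 4, which is small and largely heterochromatic, 27 of 84 genes were higher (32.1%) and 2 lower, against 12.4% higher on 2L, 12.3% on 2R, 11.4% on 3R, 11.6% on X and 240 of 1713 genes on 3L. Of 23 genes of the mitochondrial genome 7 were lower (30.4%) and 0 higher. The table holds 486 genes under 1 CPM in both untreated libraries and at least 1 CPM in both FneWT libraries, and 11 with the reverse. FneWT libraries also had a read in more genes: at a common depth of 4694825 reads 11198 and 9986 genes were expected, against 9730 and 9099 in untreated cells. The other transfected groups shared this within each replicate number, with 10874 and 9607 genes in ElavWT and 11076 and 10072 in Rbp9WT. ElavWT replicate 2 lay below untreated replicate 1.

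Set against the libraries labelled ElavWT and Rbp9WT, few genes passed. Against ElavWT, in which elav was not raised over untreated cells in both libraries (29.2 and 26.6 CPM, against 24.9 and 37.3 CPM), 16 of 8962 genes passed (0.179%), 15 higher and 1 lower in FneWT, with 844 at an unadjusted p under 0.05. Against Rbp9WT limma passed 0 genes (0%), with 481 at an unadjusted p under 0.05, edgeR 1 and DESeq2 4. A gene that did not pass is not shown to be alike in both. These contrasts share the FneWT libraries with the comparison against untreated cells.

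CG14984 measured 90.0 and 21.6 CPM in FneWT, 7.89 and 2.77 CPM in ElavWT, 12.7 and 6.18 CPM in Rbp9WT, and 1.11 and 1.17 CPM in untreated cells. Its log2 difference from ElavWT was 2.93 ± 0.39 (limma adjusted p = 0.00447). SmydA-5 measured 13.5 and 3.27 CPM in FneWT, 0.141 and 0 CPM in ElavWT, 12.9 and 2.19 CPM in Rbp9WT, and 0.139 and 0.147 CPM in untreated cells (2.83 ± 0.49, adjusted p = 0.0188). Both FneWT values of both genes lay above those of the ElavWT library with the same number. For NLaz the order turned round, with 11.1 and 4.18 CPM in FneWT and 47.8 and 21.5 CPM in ElavWT (-2.13 ± 0.36, adjusted p = 0.0188). gce, a receptor gene for juvenile hormone, measured 85.2 and 42.6 CPM in FneWT, 31.0 and 10.9 CPM in ElavWT, and 23.0 and 19.2 CPM in untreated cells (1.60 ± 0.29 against ElavWT, adjusted p = 0.025). Without FneWT replicate 1 none of the 16 passed, without FneWT replicate 2 CG14984 alone did, without ElavWT replicate 1 15 did and without ElavWT replicate 2 11 did.

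**Figure D5:**
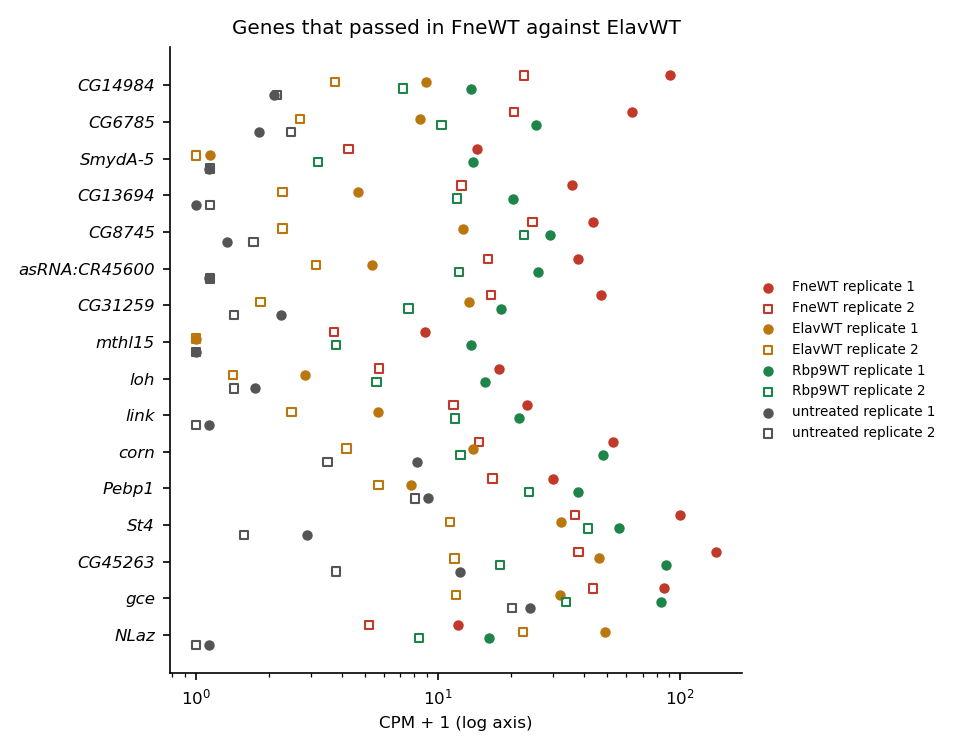
CPM + 1 on a log axis for the 16 genes that passed in FneWT against ElavWT, in all 8 libraries, with FneWT in red at the top of each row. Filled circles are replicate 1 and open squares replicate 2. ElavWT (orange) sits left of FneWT in 15 rows at the same replicate number and right of it for NLaz.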

How the data were processed

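Transcript 3′ ends of S2R+ cells were sequenced in 12 libraries per the labels, of which 8 are in the table used here, while 4 libraries of mutant forms were not used here. The authors deposited CPM values per gene, and per the submitters' processing notes the genome build was dm6. Aligner, counter and strand setting: not given in the sources used here. Whole reads were recovered from the CPM steps, and 100% of values came out whole within 0.01 of a read. Of 13777 gene IDs, 13684 matched the Ensembl release 115 annotation and 93 did not. That annotation's coordinates are of BDGP6.

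Deposited CPM values were divided by median-ratio factors and tested as log2(value + 1) with limma 3.58.1 (trend, robust) under R 4.3.3. Group and replicate number were terms over 8 libraries, which leaves 3 residual degrees of freedom. No label says what libraries of 1 number share. Same-numbered libraries deviated together in all 6 pairs of groups (correlation 0.589 to 0.875), which is why the term was kept. edgeR 4.0.16 (quasi-likelihood) and DESeq2 1.42.0 ran on recovered reads, on which edgeR called 2277 genes and DESeq2 2043. The limma step was tested on simulated data.

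Members and the 41 gene lists were chosen with earlier results of these data known. Named genes are the 10 largest rises and falls that passed without overlap, the 5 most abundant in each direction, the ELAV/Hu genes and up to 4 passing members per list, from which the text takes mainly those that passed with any 1 of 4 libraries left out. Other members named beside a list's count, and the heat shock genes, were chosen after their values were seen. Python 3.11.15, pandas 2.3.3, numpy 2.4.6 and matplotlib 3.10.9 made tables and figures. U content, promoters and sequences were not used here.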

Additional observations from a re-analysis of the deposited data

Results flagged for a closer look

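The difference between FneWT and the libraries labelled ElavWT, in which elav measured 29.2 and 26.6 CPM against 24.9 and 37.3 CPM in untreated cells, was tested as a contrast in the limma fit with the replicate term, and 16 genes passed. Since both groups are set against the same untreated cells, this contrast is the difference between their 2 changes. The log2 differences, FneWT minus ElavWT, were 2.93 for CG14984, 2.89 for CG6785, 2.83 for SmydA-5, 2.66 for CG13694, 2.60 for CG8745, 2.55 for asRNA:CR45600, 2.49 for CG31259 and 2.46 for mthl15. They were 2.30 for loh, 2.10 for link, 1.83 for corn, 1.70 for Pebp1, 1.62 for St4, 1.61 for CG45263 and 1.60 for gce. NLaz lay lower in FneWT, at -2.13. mthl15 had no read in ElavWT or in untreated cells, so its fitted difference depends on the added 1 CPM. Against Rbp9WT the same 16 genes did not pass, with limma adjusted p-values from 0.101 for CG14984 to 0.996 for mthl15, loh and link.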

How the results depend on the processing

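The main count of 1715 genes (1111 higher, 604 lower) rests on the replicate term. Without this replicate block limma passed 0 genes, 0 higher and 0 lower, also on CPM as deposited. edgeR without it passed 0 and DESeq2 429 (394 higher, 35 lower). Leaving out 1 library each gave 437 to 3598 genes, 358 to 1988 higher and 44 to 1610 lower. CPM as deposited gave 180 lower genes, TMM scaling 931 lower, no filter 266 lower, a mean of at least 5 CPM 658 higher, and 1 CPM in both untreated libraries 876 genes (444 higher). With the block, edgeR gave 2277 and DESeq2 2043. Against ElavWT the count of 16 became 0 without the block or without the filter, 1 to 2 without an FneWT library and 22 to 125 without an ElavWT library. Against Rbp9WT the count of 0 became 1 with a pseudocount of 0.25, 1 without the filter, 0 to 1 without an FneWT library and 1 to 8 without an Rbp9WT library. The change of Rbp9 reversed to -0.04 without FneWT replicate 2 and to -0.39 without untreated replicate 1, and was 0.94 without untreated replicate 2. Of 153 named genes that passed, 53 passed with any 1 of the 4 FneWT and untreated libraries left out, and 128 passed on CPM as deposited. The causes were not tested. Fits without the block combined with another scale or tool, and those without an ElavWT or Rbp9WT library, were chosen after seeing the data. In a fit without a library the lone sample is assumed to vary like the other groups. Depth limits genes near 3 reads (0.208 to 0.546 CPM here), and floors cover counting error only.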
